A study of Mus musculus with 91 samples.

Results

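The mature miRNAs of the *Igf2*-*H19* imprinted domain were followed through *Dnmt* mutant embryos, androgenetic haploid embryonic stem cells (AG-haESCs) and semi-cloned (SC) embryos of the mouse. They were chosen by name as the products of 2 hairpins, mmu-miR-483-3p and mmu-miR-483-5p of Mir483 in *Igf2*, and mmu-miR-675-3p and mmu-miR-675-5p of Mir675 in *H19*. These are 4 of the 1504 mature miRNAs in the main count table. Small RNA had been sequenced by CAS-seq, a method for picogram amounts of RNA, and 91 libraries were available, of which 88 fall into 25 groups.

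The dissected tissues, 62 libraries, were extraembryonic ectoderm (Exe), the trophoblast part of the early conceptus, and epiblast (Epi), the source of the embryo proper. Both were taken at E6.5 and again at E7.5 from controls and from 3 mutants. The mutants were *Dnmt3a/3b*-DKO, *Dnmt1*-KO and *Dnmt*-null, which lacks all 3 enzymes. There were 4 libraries per group, and 3 for E7.5 Epi control and for E7.5 Epi *Dnmt*-null. The mutants were made by injecting zygotes with base editor mRNA and guides that write premature stop codons, so each embryo is its own editing event. The embryos came from C57BL/6 males and F1 females by the labels, and the methods add an *Oct4*-EGFP transgene in the males. AG-haESCs, of the C57BL/6 strain, hold a paternal genome only and were grown in 2i with Lif. The AG-haESC groups were WT (3 libraries), O48 (3 libraries), which by the methods is the DKO line without the *H19*-DMR and the IG-DMR, and Mir-6KO (2 libraries), a single-cell clone of DKO cells with let-7b and several *Dlk1-Dio3* miRNAs deleted in addition. SC embryos are made by injecting such a haploid cell into an oocyte, so a deletion carried by the cell is heterozygous in the embryo. At E6.5 there were WT embryos, embryos with *Dnmt*-null or DKO alone, and DKO;*Dnmt*-null embryos, and at E7.5 a control made from DKO-AG-haESCs and Mir-6KO;*Dnmt*-null, with 3 libraries each.

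*Igf2*, which encodes a growth factor, is expressed from the paternal chromosome, and the long non-coding RNA *H19* from the maternal one. Between them lies the *H19*-DMR, which is methylated on the paternal allele. On the unmethylated maternal allele it binds the insulator protein CTCF, which keeps shared enhancers from *Igf2*. DNMT1 copies methylation to new DNA strands at replication, and DNMT3A and DNMT3B set it anew, so the domain is a classical place to look for lost maintenance. miR-675 is cut from *H19* itself and is known for restraining growth of the placenta, and miR-483 lies in an *Igf2* intron and is known as a partner of *Igf2* expression in tumours and in embryos. A level of both hairpins therefore reports on both sides of one domain, without being a measurement of its methylation.

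The mature sequences are given because every value that follows is a count of reads assigned to one of them. All 4 were matched by name to RefSeq and lie on the minus strand of chromosome 7 (build GRCm38.p6). Capitals mark the seed, bases 2 to 8, through which a miRNA pairs with its targets.
mmu-miR-483-3p: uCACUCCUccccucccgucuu
mmu-miR-483-5p: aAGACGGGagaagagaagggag
mmu-miR-675-3p: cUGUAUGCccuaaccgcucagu
mmu-miR-675-5p: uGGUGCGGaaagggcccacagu

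The 4 seeds differ from one another, and none is shared with another miRNA of the table. Lengths are 21, 22, 22 and 22 bases in the order shown. The G and C content is 61.9% in miR-483-3p, 54.5% in miR-483-5p, 54.5% in miR-675-3p and 63.6% in miR-675-5p.

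The hairpins show how the arms sit in their precursors, with the mature arms in capitals and the 5p arm first.
Mir483: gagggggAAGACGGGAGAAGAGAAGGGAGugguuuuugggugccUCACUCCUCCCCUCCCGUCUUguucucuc
Mir675: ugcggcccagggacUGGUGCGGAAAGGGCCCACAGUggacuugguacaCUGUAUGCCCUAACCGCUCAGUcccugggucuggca

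Mir483 (chr7:142654924-142654996, 73 bases) lies in the intron between exons 2 and 3 of transcript Igf2-201, inside *Igf2* (chr7:142650768-142666816). Mir675 (chr7:142577064-142577147, 84 bases) lies in exon 1 of transcript H19-202 and in an intron of H19-204, inside *H19* (chr7:142575530-142578146, GENCODE vM21). The hairpins are 77.8 kb apart.

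Library totals ranged from 45242 to 2394918 reads in dissected tissue, from 154061 to 2425038 in E6.5 SC embryos, from 8570373 to 26970637 in E7.5 SC embryos and from 3813865 to 16501907 in AG-haESCs. No molecular identifiers are described, so intervals and floors cover counting error only. Nothing in the labels says whether libraries of a group came from separate cultures or pools, and p-values measure the spread between these libraries. Over the 4 members, reads were found in 76 of 88 libraries for miR-483-3p (49445 reads in all), 76 of 88 for miR-483-5p (160231 reads), 57 of 88 for miR-675-3p (1510 reads) and 14 of 85 for miR-675-5p (42 reads, at most 9 in one library), which is not in the separate table of the DKO;*Dnmt*-null SC embryos. Levels are given as CPM, the counts per 1000000 reads of a library's total.

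Tissue labels were checked on marker miRNAs. The summed level of the miR-302 and miR-367 miRNAs that mark primed epiblast was 202279 to 212606 CPM in E7.5 Epi controls and 33368 to 45944 CPM in E7.5 Exe controls, and the summed trophoblast miRNAs of the *Sfmbt2* intron stood at 2631 to 3278 and 56558 to 68621 CPM. *Dnmt* transcripts are not measured by small RNA counts, so the *Dnmt* labels were not checked. E6.5 Exe *Dnmt1*-KO replicate 4 stood apart with summed blood markers of 9498 CPM, against 163 to 628 CPM in the other libraries of its group. Another that stood apart was E6.5 SC WT replicate 3, with 21252 CPM of primed epiblast markers against 195381 and 214514 CPM. The 2 libraries labelled AG-haESC Mir-6KO went against their label. The deleted miR-127-3p read 35728 and 44853 CPM there, against 551 to 594 CPM in O48, and miR-541-5p 18799 and 22638 CPM against 189 to 229 CPM. Primed epiblast markers summed to 239331 and 268002 CPM in these libraries, against 924 to 1670 CPM in O48.

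In control embryos miR-483 was higher in Exe than in Epi at E6.5, and its 3p arm rose in Epi by E7.5. In E6.5 Exe control, miR-483-3p read 1551, 769.7, 426 and 1873 CPM (1155 ± 672, mean ± SD, n = 4) and miR-483-5p 3300.3, 1072, 1103 and 1841 CPM (1829 ± 1043). In E6.5 Epi control, the levels were 129, 274, 51.4 and 41.4 CPM for miR-483-3p (124 ± 107) and 328, 313, 55.8 and 32.7 CPM for miR-483-5p (182 ± 160.0). The tissues did not overlap in either arm. Both arms were called higher in Exe, by a log2 fold change of 2.98 (SE 0.83) for the 3p arm and 3.09 (SE 0.86) for the 5p arm, each with an adjusted p of 0.00625 (edgeR quasi-likelihood test, Benjamini-Hochberg over the 658 miRNAs tested), in a comparison in which 22.8% of all miRNAs were called. The 2 E6.5 Epi controls with the higher levels, replicates 1 and 2, also had the higher trophoblast markers, 22746 and 35112 CPM against 9582 and 7920 CPM in replicates 3 and 4. The part of this in the result was not tested. In such bulk samples, fewer cells of a type and less RNA per cell cannot be told apart.

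At E7.5 the Exe controls carried 2358, 1526, 2878 and 2769 CPM of miR-483-3p (2383 ± 614) and 2225, 1703, 2489.8 and 2255 CPM of miR-483-5p (2168 ± 332), the highest group means of the series for both arms. The E7.5 Epi controls were tight, with 861, 879.6 and 808 CPM of miR-483-3p (849 ± 37.4, n = 3) and 555, 713 and 718 CPM of miR-483-5p (662 ± 93.0). Again the tissues did not overlap in either arm. With the spread shared over all 16 groups of dissected tissue, the Exe to Epi difference missed the threshold, at 1.1 (SE 0.84, adjusted p = 0.369) for the 3p arm and 1.32 (SE 0.87, adjusted p = 0.287) for the 5p arm. With only the compared groups in the fit, both were called, at 1.37 (adjusted p = 0.000776) and 1.60 (adjusted p = 9.24e-05). In this contrast 26.4% of all miRNAs were called.

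From E6.5 to E7.5, miR-483-3p rose in Epi controls by 2.95 (SE 0.85, adjusted p = 0.0088), and miR-483-5p had an estimate of 2.04 (SE 0.86, adjusted p = 0.0889), with 17.5% of all miRNAs called. The stages did not overlap in either arm. Every marker sum also differed between them without overlap. Trophoblast (2631 to 3278 CPM against 7920 to 35112 CPM), pluripotent and blood markers were lower at E7.5. Endoderm (3459 to 4174 CPM against 745 to 1768 CPM), primed epiblast, mesenchyme, and muscle and heart markers were higher. Their part was not tested. In Exe controls the stage difference was 1.06 (SE 0.77, adjusted p = 0.479) for miR-483-3p and 0.27 (SE 0.78, adjusted p = 0.954) for miR-483-5p. Neither was called in Exe, where 0 members passed by edgeR, 0 at an unadjusted p under 0.05 and 0 by DESeq2, and 7.6% of all miRNAs were called.

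miR-675-3p, the *H19* product, was scarce throughout. Exe controls held 0, 36.0, 74.2 and 57.5 CPM at E6.5 and 11.7, 11.7, 28.0 and 52.1 CPM at E7.5. Epi controls held 0, 10.7, 13.4 and 0 CPM at E6.5 and 0, 0 and 2.46 CPM at E7.5. At E7.5 every Exe control lay above every Epi control. The estimate for that contrast was 4.39 (SE 1.74, adjusted p = 0.0552). It was called with only the compared groups (4.76, adjusted p = 0.0454) and without E7.5 Epi control replicate 3, the sole Epi control with a read of this arm (adjusted p = 0.0201). The size without that library is not given, as the remaining Epi controls were at 0. At E6.5 the Exe to Epi estimate was 2.57 (SE 1.49, adjusted p = 0.204), and the stage estimates were -0.75 (SE 1.37) in Exe and -2.57 (SE 1.64) in Epi, with adjusted p-values of 0.866 and 0.326. miR-675-5p had 3 reads in one E6.5 Exe control, and 2 reads each in one E7.5 Exe and one E7.5 Epi control.

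**Figure D1:**
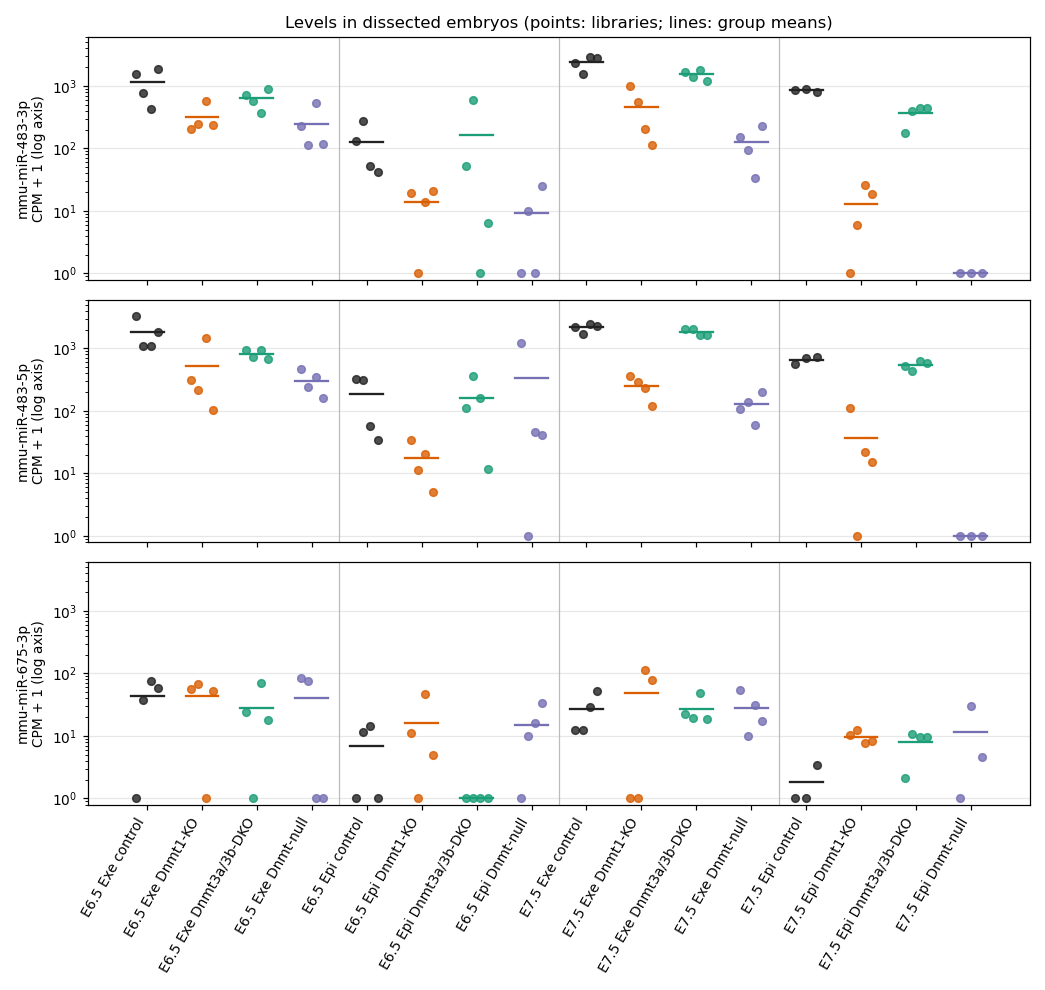
Level of miR-483-3p, miR-483-5p and miR-675-3p in Exe and Epi dissected at either stage, as CPM + 1 on a log axis, by genotype. Points are libraries and lines are group means. In E7.5 Epi the controls sit between 555 and 879.6 CPM for both arms of miR-483, and the *Dnmt*-null libraries at 0.

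Loss of DNMT1 was compared with control embryos to ask what happens to the domain without maintenance. In E7.5 Epi, where the controls had the least spread, miR-483-3p read 0, 5.02, 25.0 and 17.7 CPM in *Dnmt1*-KO (11.9 ± 11.5, n = 4). miR-483-5p read 109, 0, 20.8 and 14.5 CPM (36.2 ± 49.6). Every *Dnmt1*-KO library lay below every control for both arms. miR-483-3p fell by 6.29 on the log2 scale (SE 0.68, adjusted p = 1.6e-05), and miR-483-5p fell by 4.35 (SE 0.81, adjusted p = 0.00144), with 16.3% of all miRNAs called. The 5p value turned on replicate 1, which held 106 reads of the 5p arm and none of the 3p arm, and without it miR-483-5p fell by 5.94 (adjusted p = 2.09e-05).

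In E7.5 Exe, *Dnmt1*-KO libraries held 982, 558, 205 and 112 CPM of miR-483-3p (464 ± 395) and 361, 284, 231 and 119 CPM of miR-483-5p (249 ± 102), and none reached the lowest control. Both arms were called, with 5.03% of all miRNAs called. miR-483-5p fell by 3.04 (SE 0.39, adjusted p = 0.000141). miR-483-3p fell by 2.23 (SE 0.58, adjusted p = 0.0258), a call that was lost when any one of control replicates 1, 3 and 4 or *Dnmt1*-KO replicates 2, 3 and 4 was left out (adjusted p from 0.0547 to 0.0883). Pluripotent markers were lower without overlap, at 53374 to 74208 CPM against 75512 to 91557 CPM, and their part was not tested.

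At E6.5 the same comparison gave no call. *Dnmt1*-KO Exe held 207, 246, 569.6 and 237 CPM of miR-483-3p and 315, 213, 1456 and 102 CPM of miR-483-5p, with replicate 3 far above the rest for both arms. The estimates were -2.05 (SE 0.57, adjusted p = 0.12) and -1.97 (SE 0.60, adjusted p = 0.192). Of the 376 miRNAs tested, 0% were called, while 2 members passed at an unadjusted p under 0.05 and 2 with DESeq2. Without *Dnmt1*-KO replicate 3, miR-483-5p was called at -3.20 (SE 0.52, adjusted p = 0.00145), and without control replicate 3, miR-483-3p was called at -2.33 (adjusted p = 0.039). Without the library with blood markers, replicate 4, the estimates were -1.87 and -1.60.

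In E6.5 Epi, *Dnmt1*-KO libraries held 18.3, 0, 13.1 and 19.9 CPM of miR-483-3p (12.8 ± 9.03) and 33.3, 10.4, 19.6 and 3.98 CPM of miR-483-5p (16.8 ± 12.7). All 4 lay below all controls for the 3p arm, while the 5p arm overlapped by one library. The estimates were -3.23 (SE 1.29, adjusted p = 0.262) and -3.29 (SE 1.27, adjusted p = 0.248), with 0 members called, 2 at an unadjusted p under 0.05 and 0 with DESeq2, and 0.733% of all miRNAs called. Summed trophoblast markers were 5538 to 8799 CPM in these libraries and 7920 to 35112 CPM in the controls, and blood markers 411 to 848 CPM against 257 to 300.4 CPM, and their part was not tested.

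No member was called in embryos without DNMT3A and DNMT3B. E7.5 Exe *Dnmt3a/3b*-DKO held 1679.9, 1394, 1801 and 1218 CPM of miR-483-3p (1523 ± 266) and 2054, 2061, 1644 and 1612 CPM of miR-483-5p (1843 ± 248), and overlapped the controls in both arms. The estimates were -0.68 (SE 0.56, adjusted p = 0.891) and -0.28 (SE 0.36, adjusted p = 0.938), with 95% intervals of -1.78 to 0.41 and -0.98 to 0.42. No member was called by edgeR, 0 at an unadjusted p under 0.05 and 0 with DESeq2, where 3.02% of all miRNAs were called.

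In E7.5 Epi the *Dnmt3a/3b*-DKO libraries held 176, 397, 434 and 449.9 CPM of miR-483-3p (364 ± 128), each below the lowest control, and 519, 431, 621 and 591 CPM of miR-483-5p (541 ± 84.6), which overlapped the controls. The 3p estimate was -1.32 (SE 0.56, adjusted p = 0.187) and the 5p estimate -0.38 (SE 0.72, adjusted p = 0.877). There, 7.67% of all miRNAs were called and 0 members, with 1 at an unadjusted p under 0.05 and 0 with DESeq2. With only the compared groups in the fit, miR-483-3p was called at -1.29 (adjusted p = 0.0113). Blood (344 to 1044 CPM), trophoblast (3634 to 7559 CPM), endoderm (4581 to 5719 CPM) and pluripotent markers (29132 to 39304 CPM) were higher than in the controls without overlap, and their part was not tested.

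At E6.5, *Dnmt3a/3b*-DKO Exe held 721, 568, 373 and 889.9 CPM of miR-483-3p and 933, 717, 943 and 666 CPM of miR-483-5p. All 4 were below the lowest control for the 5p arm. The estimates of -1.04 (SE 0.55, adjusted p = 0.578) and -1.32 (SE 0.59, adjusted p = 0.547) were not called, in a contrast in which 0.532% of all miRNAs were called, 1 member passed at an unadjusted p under 0.05 and 0 with DESeq2. E6.5 Epi *Dnmt3a/3b*-DKO was scattered, with 51.9, 603, 0 and 5.31 CPM of miR-483-3p and 108, 366, 161 and 10.6 CPM of miR-483-5p. Replicate 2, the high library, also had the highest trophoblast markers of its group, 19522 CPM against 845 to 10500 CPM. The estimates were 0.34 (SE 1.14, adjusted p = 0.927) and -0.20 (SE 1.13, adjusted p = 0.955), and -2.51 (adjusted p = 0.301) and -0.89 (adjusted p = 0.77) without replicate 2. Blood markers were higher (451 to 1039 CPM) and pluripotent markers lower (56209 to 78450 CPM) than in the controls without overlap, and their part was not tested. Here 3.42% of all miRNAs were called and 0 members, 0 at an unadjusted p under 0.05 and 0 with DESeq2.

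*Dnmt*-null embryos had the lowest group means of miR-483 in both tissues of E7.5. In E7.5 Epi, neither arm had a read in any of the 3 libraries, which together hold 1041091 reads, so that 3 counts, the limit a count of 0 allows, correspond to 2.88 CPM. Against control, miR-483-3p was at least 296-fold lower and miR-483-5p at least 226-fold lower, both called (adjusted p = 8.8e-06 and 0.000112), in a contrast in which 33.7% of all miRNAs were called. The libraries were shallow, with 272867 to 488108 reads against 1623256 to 2325698 in the controls. All 7 marker sums differed from control without overlap. Lower were primed epiblast (105333 to 164935 CPM against 202279 to 212606 CPM), muscle and heart (17.8 to 34.8 CPM against 132 to 422 CPM), mesenchyme (85.7 to 160 CPM against 277 to 413 CPM) and endoderm markers (2334 to 3042 CPM against 3459 to 4174 CPM). Higher were blood (828 to 1110.2 CPM against 64.1 to 122 CPM), trophoblast (5505 to 11252 CPM against 2631 to 3278 CPM) and pluripotent markers (38677 to 50597 CPM). Their part in the result was not tested. In *Dnmt1*-KO Epi of E7.5, where miR-483 also fell, the muscle and heart sum was 51.4 to 246 CPM and the mesenchyme sum 135 to 405 CPM, and both overlapped the controls. Of the others, 4 sums did not overlap the controls. Primed epiblast markers were lower in *Dnmt1*-KO, at 135939 to 200375 CPM, and blood (344 to 553 CPM), trophoblast (3889 to 4738 CPM) and pluripotent markers (28894 to 43043 CPM, against 27841 to 28221 CPM) were higher. Their part was not tested.

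E7.5 Exe *Dnmt*-null libraries held 150.2, 93.8, 32.4 and 223 CPM of miR-483-3p (125 ± 81.4) and 105, 139.6, 59.4 and 203 CPM of miR-483-5p (127 ± 60.6), all below every control. miR-483-3p fell by 4.17 (SE 0.64, adjusted p = 0.000236), and miR-483-5p fell by 4.01 (SE 0.41, adjusted p = 4.51e-06), with 9.88% of all miRNAs called. Trophoblast markers summed to 41199 to 71905 CPM in these libraries, overlapping the 56558 to 68621 CPM of the controls. Primed epiblast markers (17252 to 27413 CPM against 33368 to 45944 CPM) and pluripotent markers (64784 to 75340 CPM against 75512 to 91557 CPM) were lower without overlap, and their part was not tested.

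In E6.5 Exe *Dnmt*-null, the levels were 226, 114, 534 and 116 CPM for miR-483-3p (247 ± 198) and 466, 237, 347 and 158 CPM for miR-483-5p (302 ± 134), the latter all below the controls. miR-483-5p fell by 2.77 (SE 0.63, adjusted p = 0.0473), 1 of 2 miRNAs called of 376 (0.532%). The miR-483-3p estimate was -2.43 (SE 0.58, adjusted p = 0.0552). The 5p call was lost without control replicate 1 or 4 or any one *Dnmt*-null library (adjusted p from 0.0557 to 0.158), and the 3p arm was called without control replicate 3 (adjusted p = 0.0238) or *Dnmt*-null replicate 3 (adjusted p = 0.017).

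E6.5 Epi *Dnmt*-null held 0, 8.86, 0 and 24.4 CPM of miR-483-3p, below all controls, and 1238, 0, 45.0 and 40.6 CPM of miR-483-5p. The 5p value of replicate 1 was 56 reads in the shallowest library of the series, with 45242 reads. The estimates were -3.57 (SE 1.47, adjusted p = 0.116) for the 3p arm and 0.74 (SE 1.16, adjusted p = 0.742) for the 5p arm, which became -2.80 (adjusted p = 0.146) without replicate 1. In this contrast 13% of all miRNAs were called and 0 members, with 1 at an unadjusted p under 0.05 and 1 with DESeq2. Primed epiblast markers (48473 to 100114 CPM against 130389 to 200354 CPM) and pluripotent markers (31917 to 66207 CPM against 92044 to 99339 CPM) were lower without overlap, and their part was not tested.

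**Figure D2:**
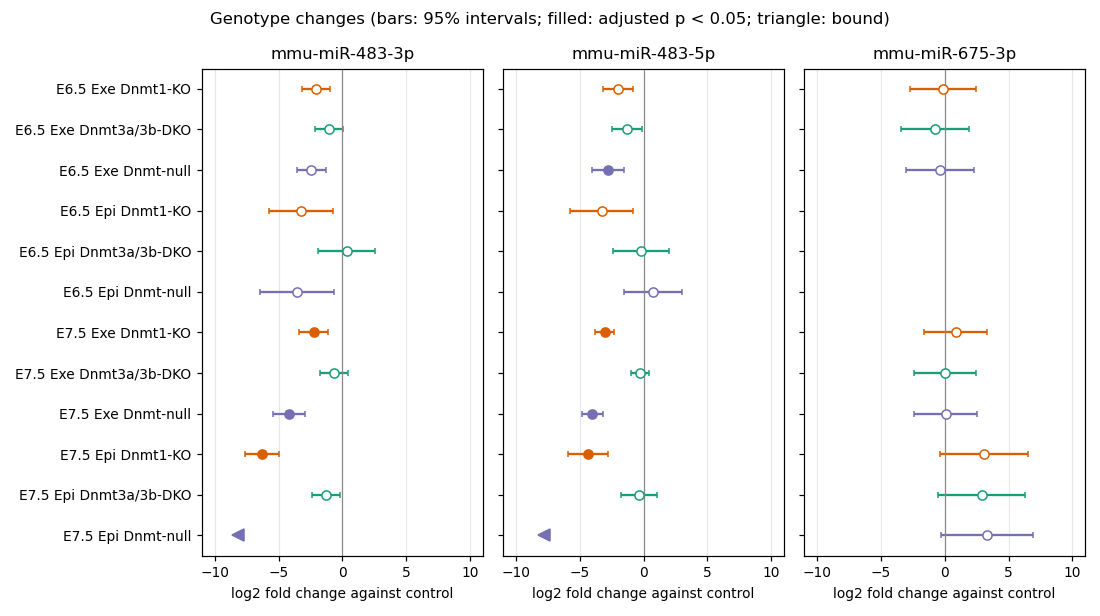
Log2 fold change of miR-483-3p, miR-483-5p and miR-675-3p against control for each mutant genotype, by tissue and stage. Bars are 95% intervals, filled points have an adjusted p under 0.05, and triangles are bounds set at 3 counts. All filled points are miR-483 in *Dnmt1*-KO or *Dnmt*-null tissue and lie below 0, and no miR-675-3p point is filled.

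*Dnmt1*-KO was also set directly against *Dnmt3a/3b*-DKO, the comparison of lost maintenance with lost de novo methylation. In E7.5 Epi, both arms were lower in *Dnmt1*-KO in every library. The log2 fold changes were -4.97 (SE 0.64, adjusted p = 0.000247) for miR-483-3p and -3.97 (SE 0.77, adjusted p = 0.00412) for miR-483-5p, with 9.82% of all miRNAs called. In E7.5 Exe, the genotypes did not overlap either. There miR-483-5p was called at -2.77 (SE 0.38, adjusted p = 0.000464) and miR-483-3p was not, at -1.55 (SE 0.57, adjusted p = 0.232), with 1.68% of all miRNAs called. Blood markers were lower in *Dnmt1*-KO Exe without overlap, at 497 to 1591 CPM against 1942 to 7473 CPM, and their part was not tested.

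At E6.5 the main edgeR fits called no miRNA of any kind between these genotypes (0% in Exe and 0% in Epi). DESeq2 called 5 miRNAs higher in Exe, and 14 higher and 4 lower in Epi. The Exe estimates were -1.01 (SE 0.55) for miR-483-3p and -0.66 (SE 0.59) for miR-483-5p, both with an adjusted p of 0.989, and 0 members passed at an unadjusted p under 0.05 or with DESeq2. Without *Dnmt1*-KO replicate 3 they were -1.47 (SE 0.58, adjusted p = 0.48) and -1.95 (SE 0.50, adjusted p = 0.134). The Epi estimates were -3.57 (SE 1.30, adjusted p = 0.202) and -3.09 (SE 1.27, adjusted p = 0.288), and 2 members passed at an unadjusted p under 0.05 and 0 with DESeq2. Without E6.5 Epi *Dnmt3a/3b*-DKO replicate 2, the 3p estimate was -0.76.

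Whether the loss differed between tissues was tested as the Epi change minus the Exe change. No member was called in any of the 6 tests, in which 0% to 0.912% of all miRNAs were called. At E7.5 the *Dnmt1*-KO change of miR-483-3p was more negative in Epi by an estimated -4.33 (SE 1.16, adjusted p = 0.0938), while that of miR-483-5p differed by -1.57 (SE 1.16, adjusted p = 0.722), in a test with 0% of all miRNAs called. With DESeq2, 1 member was called there. For *Dnmt*-null at E7.5, the adjusted p was 0.0533 for miR-483-3p and 0.0954 for miR-483-5p (0.608% called), with 2 members called by DESeq2. Its size is not given, as the Epi libraries were at 0. Without E7.5 Exe *Dnmt*-null replicate 3 or E7.5 Epi control replicate 2, the 3p arm was called (adjusted p = 0.0356 and 0.0438). The *Dnmt3a/3b*-DKO changes differed by -0.73 (SE 1.1) and -0.22 (SE 1.15) at E7.5 (0.76% called), with an adjusted p of 1 for both arms. At E6.5 the differences for the 3p and 5p arms were -1.42 and -1.55 in *Dnmt1*-KO (0% called), 1.09 and 0.81 in *Dnmt3a/3b*-DKO (0% called), and -1.49 and 2.86 in *Dnmt*-null (0.912% called), with adjusted p-values of 0.197 and above. Single libraries set the direction of 2 of these. Without E6.5 Epi *Dnmt3a/3b*-DKO replicate 2, the 3p difference was -1.73 in place of 1.09, and the 5p difference was 0.11 in place of 0.81. Without E6.5 Epi *Dnmt*-null replicate 1, the *Dnmt*-null 5p difference was -0.35 in place of 2.86. Without E6.5 Exe *Dnmt1*-KO replicate 3, the *Dnmt1*-KO differences were -1.09 and -0.37. At an unadjusted p under 0.05, 1 member passed for E7.5 *Dnmt1*-KO, 2 for E7.5 *Dnmt*-null, 1 for E6.5 *Dnmt*-null and 0 in the other 3 tests.

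On the *H19* side, no genotype contrast called miR-675-3p. In E7.5 Epi, all 4 *Dnmt1*-KO libraries had reads, at 9.30, 11.3, 6.66 and 7.23 CPM (8.62 ± 2.11), against 0, 0 and 2.46 CPM in the controls, and the groups did not overlap. The estimate was 3.09 (SE 1.75, adjusted p = 0.27), from 8 or 9 reads per library. *Dnmt3a/3b*-DKO Epi held 1.13, 9.82, 8.75 and 8.79 CPM (estimate 2.91, SE 1.73, adjusted p = 0.392) and *Dnmt*-null Epi 0, 28.7 and 3.57 CPM (estimate 3.34, SE 1.83, adjusted p = 0.182), from 0, 14 and 1 reads. The 95% intervals of these estimates ran from -0.34 to 6.52, from -0.49 to 6.31 and from -0.25 to 6.94. With 1 library left out, the *Dnmt*-null estimate was 0.90 at its lowest, and its adjusted p was highest, 0.815, without *Dnmt*-null replicate 2. Its upper end is not given, as without control replicate 3 the controls had no read. *Dnmt1*-KO against *Dnmt3a/3b*-DKO gave 0.18 (SE 1.43). Trophoblast markers were above the 2631 to 3278 CPM of the E7.5 Epi controls without overlap in each mutant. They were 3889 to 4738 CPM in *Dnmt1*-KO, 3634 to 7559 CPM in *Dnmt3a/3b*-DKO and 5505 to 11252 CPM in *Dnmt*-null, and their part was not tested.

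In E7.5 Exe, miR-675-3p read 0, 0, 112 and 77.8 CPM in *Dnmt1*-KO, 21.1, 18.6, 48.1 and 18.0 CPM in *Dnmt3a/3b*-DKO, and 52.6, 9.16, 29.7 and 16.6 CPM in *Dnmt*-null. The *Dnmt1*-KO libraries split, replicates 1 and 2 having no read and replicates 3 and 4 more than any control. The estimates against control were 0.87 (SE 1.25), 0.01 (SE 1.24) and 0.06 (SE 1.26), with adjusted p-values of 0.861, 1 and 0.996. *Dnmt1*-KO replicates 3 and 4, high in miR-675-3p, were also the pair lower in miR-483-3p, at 205 and 112 CPM against 982 and 558 CPM, and had higher blood markers, 1591 and 1354 CPM against 497 and 524 CPM. In E6.5 Exe the levels were 55.2, 66.9, 0 and 50.8 CPM in *Dnmt1*-KO, 22.9, 0, 69.6 and 17.2 CPM in *Dnmt3a/3b*-DKO and 82.7, 73.4, 0 and 0 CPM in *Dnmt*-null. These estimates were -0.17 (SE 1.32), -0.76 (SE 1.36) and -0.34 (SE 1.36), none with an adjusted p under 0.946.

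In E6.5 Epi, miR-675-3p did not pass the low-count filter. It read 9.99, 0, 45.8 and 3.98 CPM in *Dnmt1*-KO, 0, 8.86, 15 and 32.5 CPM in *Dnmt*-null, and 0 in all 4 *Dnmt3a/3b*-DKO libraries, whose 732796 reads put the limit at 4.09 CPM. miR-675-5p passed the filter in no fit. Its counts in dissected mutants were at most 3, and 0 in all *Dnmt*-null libraries.

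As *Igf2* and *H19* are expressed from opposite parental alleles, the balance of their miRNAs was computed for each library as the log2 ratio of miR-675 to miR-483 reads, both arms summed and 0.5 added to each. Where a library has no miR-675 read, as in E7.5 Epi control replicate 2, the ratio is set by the added 0.5 and by its miR-483 reads. That library stood at -12.55, and at -11.55 with 1 added. In E7.5 Epi it was -10.67 ± 1.74 in controls (n = 3), -6.99 ± 0.67 in *Dnmt3a/3b*-DKO (n = 4) and -1.80 ± 2.0 in *Dnmt1*-KO (n = 4), and these 3 groups did not overlap. As a share of all reads of the 2 hairpins, miR-675 made up 0.0607%, 0% and 0.161% in controls, 0.325%, 1.17%, 0.822% and 0.838% in *Dnmt3a/3b*-DKO, and 7.83%, 69.2%, 12.7% and 18.4% in *Dnmt1*-KO. The highest of these rested on 13 reads. E7.5 Epi *Dnmt*-null was not compared, as its libraries held 0, 14 and 1 reads of the 2 hairpins, all of miR-675. Groups were compared only where every library had at least 10 such reads, so the E6.5 Epi mutants were left out too.

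The *Dnmt1*-KO ratio was higher than control by 8.87 and higher than *Dnmt3a/3b*-DKO by 5.19, and *Dnmt3a/3b*-DKO was higher than control by 3.68. In the Exe of E7.5, *Dnmt*-null lay above control by 4.40 (-3.25 ± 1.55 against -7.65 ± 0.88), again without overlap. There miR-675-3p averaged 27.0 CPM against 25.9 CPM in control (log2 fold change 0.06). The log2 fold changes of miR-483-3p and miR-483-5p were -4.17 and -4.01, so this ratio difference is not separate from the fall of miR-483. Exact two-sided permutation tests gave p = 0.0286 with 4 libraries against 4 and p = 0.0571 with 4 against 3, the smallest these sizes allow, for each of these 4 ratio differences. After adjustment over the 16 comparisons made, all 4 had an adjusted p of 0.152, so none passed. E7.5 Exe *Dnmt1*-KO (difference from control 1.40) and E6.5 Exe *Dnmt1*-KO (1.51) and *Dnmt*-null (1.72) overlapped their controls, with p = 0.6, 0.514 and 0.343 by the same exact test. The E6.5 Exe *Dnmt1*-KO overlap came from replicate 3 alone, which had no miR-675 read. The other 3 libraries stood at -3.21, -2.76 and -2.64, above the highest control at -4.06, and the difference without replicate 3 was 3.35 (adjusted p = 0.114). In E7.5 Exe *Dnmt1*-KO, replicates 1 and 2 had no miR-675 read, and the difference was -0.05 without replicate 3, -0.16 without replicate 4, 3.10 without replicate 1 and 2.70 without replicate 2. Among controls, E7.5 Exe lay above E7.5 Epi by 3.02, and Epi at E7.5 below Epi at E6.5 by an estimate of -5.02 (exact permutation p = 0.0571 each, adjusted p = 0.152).

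**Figure D3:**
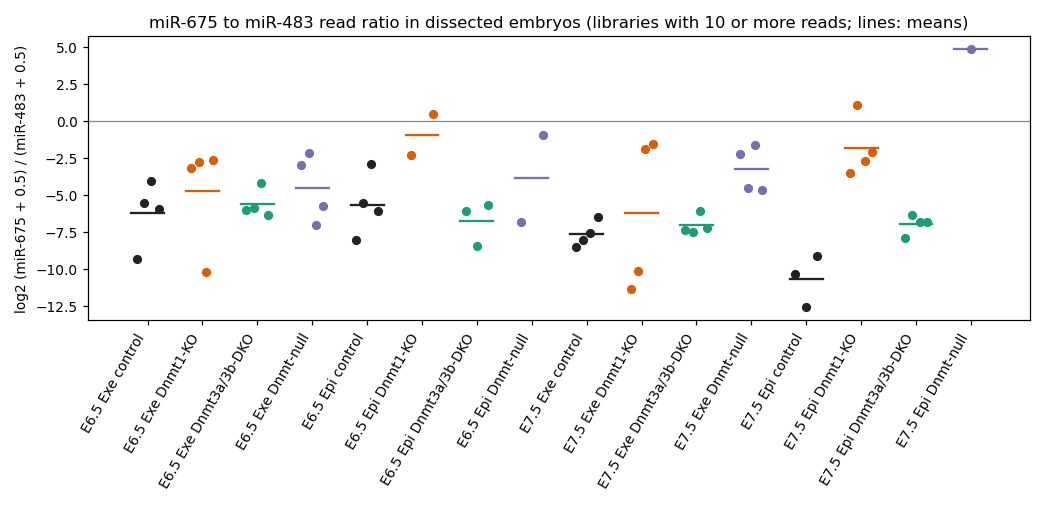
Log2 ratio of miR-675 to miR-483 reads, with 0.5 added to each, in dissected tissue by genotype, for libraries with at least 10 reads on the hairpins. Points are libraries and lines are means. In E7.5 Epi the group means rise from -10.67 in controls to -6.99 in *Dnmt3a/3b*-DKO and -1.80 in *Dnmt1*-KO.

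Both arms of a hairpin are cut from one precursor, and their proportion was computed for each library. In E6.5 controls, the 5p arm made up 62 ± 10.1% of miR-483 reads in Exe and 55.3 ± 11.7% in Epi. At E7.5 the shares were 48.1 ± 3.4% and 43.7 ± 4.1%. Exe and Epi were not told apart at either stage (exact two-sided permutation p = 0.4 and p = 0.229, adjusted p = 0.4 for both). The deepest control library, E7.5 Exe control replicate 3, gave 46.4% from 11110 reads, with a 95% Clopper-Pearson interval of 45.5% to 47.3%.

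Among mutants of dissected tissue, the mean 5p share was 54.8 ± 5.1% in E7.5 Exe *Dnmt3a/3b*-DKO, 41.3 ± 13% in E7.5 Exe *Dnmt1*-KO, 53.3 ± 10.8% in E7.5 Exe *Dnmt*-null and 60.6 ± 9.8% in E7.5 Epi *Dnmt3a/3b*-DKO. These shares were not tested. A few libraries held the 5p arm only: E7.5 Epi *Dnmt1*-KO replicate 1 with 106 of 106 reads, E6.5 Epi *Dnmt*-null replicate 1 with 56 of 56 and E6.5 Epi *Dnmt3a/3b*-DKO replicate 3 with 25 of 25. miR-675 showed the opposite arm. In E7.5 Exe controls 2 of 103 reads were of the 5p arm (1.94%, interval 0.24% to 6.84%), and in E7.5 Exe *Dnmt1*-KO 3 of 210.

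**Figure D4:**
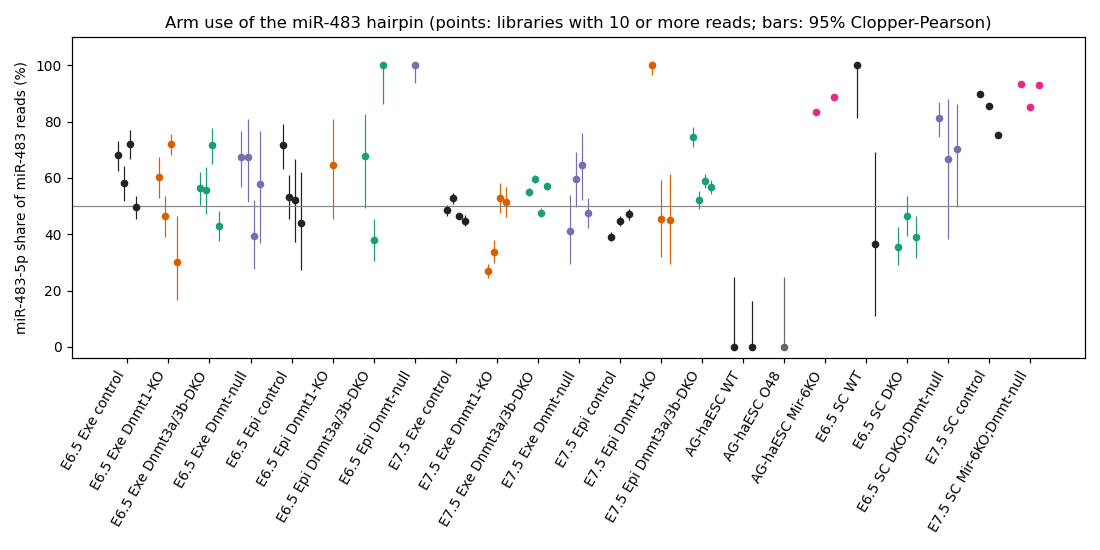
Share of miR-483 reads on the 5p arm, in percent, per library with at least 10 miR-483 reads, by group. Bars are 95% Clopper-Pearson intervals. Control Exe and Epi libraries lie between 39.2% and 72.2%, and the E7.5 SC libraries between 75.4% and 93.5%.

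In AG-haESCs, cells with a paternal genome only, the miR-483 hairpin was close to silent and miR-675 had no read. WT cells held 0, 2.59 and 5.51 CPM of miR-483-3p and O48 cells 0.823, 0 and 2.79 CPM, and neither had a read of miR-483-5p. The WT and O48 libraries overlapped. For O48 against WT, the miR-483-3p estimate was -1.17 (SE 1.46, adjusted p = 0.796), with 0 members called by edgeR, 0 at an unadjusted p under 0.05 and 0 with DESeq2, and 13.7% of all miRNAs called. In the pooled WT libraries, 0 of 34 miR-483 reads were of the 5p arm, which allows a share of up to 10.3% (upper Clopper-Pearson bound).

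The libraries labelled Mir-6KO, which go against their label as described, held 180.4 and 83.7 CPM of miR-483-3p and 914 and 649.6 CPM of miR-483-5p. Against O48, miR-483-3p was called at 6.28 (SE 1.73, adjusted p = 0.0178), and miR-483-5p was at least 4626-fold higher against 3 counts over the O48 group (adjusted p = 0.000257), with 52.1% of all miRNAs called. The 3p call was lost without O48 replicate 1 (6.08, adjusted p = 0.0653). Primed epiblast markers moved with this result, as given above. Pluripotent (17720 to 21338 CPM against 126599 to 147083 CPM), mesenchyme (118 to 218 CPM against 1223 to 1708 CPM) and trophoblast markers (1362 to 2738 CPM against 3279 to 4471 CPM) were lower without overlap. Endoderm (2927 to 4653 CPM against 1047 to 1157 CPM) and muscle and heart markers (34.7 to 59.6 CPM against 0 to 0.492 CPM) were higher. The part of these markers in the result was not tested. The 5p shares of the libraries labelled Mir-6KO, 83.5% and 88.6%, were in the range of the E7.5 SC embryos.

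SC embryos carry a paternal genome that has passed through cultured haploid cells, in which the paper reports lost methylation of the *H19*-DMR. WT therefore names embryos without a deletion, not embryos whose paternal *H19*-DMR is known to be methylated. At E6.5, WT held 2.96, 0 and 27.1 CPM of miR-483-3p and 0, 34.5 and 15.5 CPM of miR-483-5p. DKO, whose paternal genome lacks the *H19*-DMR, held 60.5, 45.3 and 45.4 CPM and 33.5, 39.3 and 28.9 CPM. For the 3p arm every DKO library was above every WT library. The estimate was 2.30 (SE 1.1, adjusted p = 0.397), and 0.83 (SE 0.86, adjusted p = 0.664) for the 5p arm, with 0.217% of all miRNAs called and 0 members (0 at an unadjusted p under 0.05, 0 with DESeq2). Without WT replicate 3, the library that stood apart in its markers, miR-483-3p was called at 5.29 (SE 0.92, adjusted p = 0.0494). Trophoblast (21260 to 24116 CPM against 3399 to 18461 CPM), pluripotent (73133 to 82977 CPM against 5866 to 67830 CPM) and mesenchyme markers (169 to 196 CPM against 111 to 154 CPM) were higher in DKO without overlap, and their part was not tested.

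*Dnmt*-null SC embryos held 0, 4.03 and 7.42 CPM of miR-483-3p and 45.4, 24.2 and 12.4 CPM of miR-483-5p, within the WT range for the 3p arm. The estimates against WT were -1.20 (SE 1.48) and 0.30 (SE 0.96), and 1.71 for the 3p arm without WT replicate 3. No member was called in this contrast, 0 at an unadjusted p under 0.05 and 0 with DESeq2, with 1.52% of all miRNAs called. The highest group mean of miR-675-3p among SC embryos was found here. It read 32.5, 44.4 and 12.4 CPM against 5.91, 13.4 and 0 CPM in WT and 9.30, 12.0 and 2.89 CPM in DKO, and miR-675-5p 26.0, 0 and 22.3 CPM, its highest levels of the series, from 4, 0 and 9 reads. Neither arm passed the filter in that fit. Trophoblast (19057 to 59429 CPM against 3399 to 18461 CPM), endoderm (3551 to 4734 CPM against 1828 to 2315 CPM) and mesenchyme markers (206 to 312 CPM against 111 to 154 CPM) were higher than in WT without overlap. Their part was not tested.

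DKO;*Dnmt*-null SC embryos, deposited in a table of their own, held 22.7, 28.2 and 33.3 CPM of miR-483-3p and 98.1, 56.5 and 79.2 CPM of miR-483-5p. Against DKO the arms went opposite ways, both without overlap. miR-483-3p fell by 1.09 (SE 0.33, adjusted p = 0.0141) and miR-483-5p rose by 1.19 (SE 0.26, adjusted p = 0.0016), with 35.3% of all miRNAs called. The 5p share was 72.7 ± 7.6% against 40.3 ± 5.6%. Both calls were lost without DKO;*Dnmt*-null replicate 1 (-0.78, adjusted p = 0.189 and 0.94, adjusted p = 0.0568), and the 3p call without DKO replicate 1 (-0.94, adjusted p = 0.0733). Genotype and table cannot be told apart. Primed epiblast markers were lower without overlap, at 130119 to 147052 CPM against 177971 to 196784 CPM. Blood (763 to 943 CPM against 202 to 268 CPM), endoderm (2540 to 3505 CPM against 1592 to 1953 CPM), trophoblast (25659 to 32581 CPM against 21260 to 24116 CPM) and mesenchyme markers (220.2 to 304 CPM against 169 to 196 CPM) were higher, and the part of these was not tested. miR-675-3p read 0.732, 11.3 and 4.17 CPM, with an estimate of -1.74 (SE 1.02, adjusted p = 0.206). With 1 library left out, this estimate ranged from -2.60 to -0.22, and its adjusted p was highest, 0.92, without DKO;*Dnmt*-null replicate 1.

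At E7.5, control SC embryos held 159.7, 255 and 216 CPM of miR-483-3p (210.2 ± 48) and 1410.5, 1506 and 662 CPM of miR-483-5p (1193 ± 462). Mir-6KO;*Dnmt*-null SC embryos held 131, 50.3 and 81.9 CPM (87.8 ± 40.7) and 1900.5, 293 and 1102 CPM (1098 ± 804). Every mutant library lay below every control for the 3p arm, and the 5p arm overlapped. The estimates were -1.55 (SE 0.41, adjusted p = 0.122) and -0.41 (SE 0.55, adjusted p = 0.995; 0.04 without Mir-6KO;*Dnmt*-null replicate 2), with 0 members called by edgeR, 1 at an unadjusted p under 0.05 and 1 with DESeq2, and 3.08% of all miRNAs called. The 5p arm made up 83.6 ± 7.4% of miR-483 reads in the controls and 90.7 ± 4.6% in the mutants, both above the 43.7 ± 4.1% of E7.5 Epi controls, a difference between experiments that was not tested. Between the E7.5 SC groups, primed epiblast markers were lower in the mutants without overlap (77546 to 170777 CPM against 178106 to 220309 CPM) and blood (459 to 566 CPM against 73.0 to 81.1 CPM) and endoderm markers (3852 to 4588 CPM against 1545 to 3538 CPM) higher, and their part was not tested. miR-675-3p was found in one library of each group, at 5.93 and 29.3 CPM, and at 0 in the others.

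**Figure D5:**
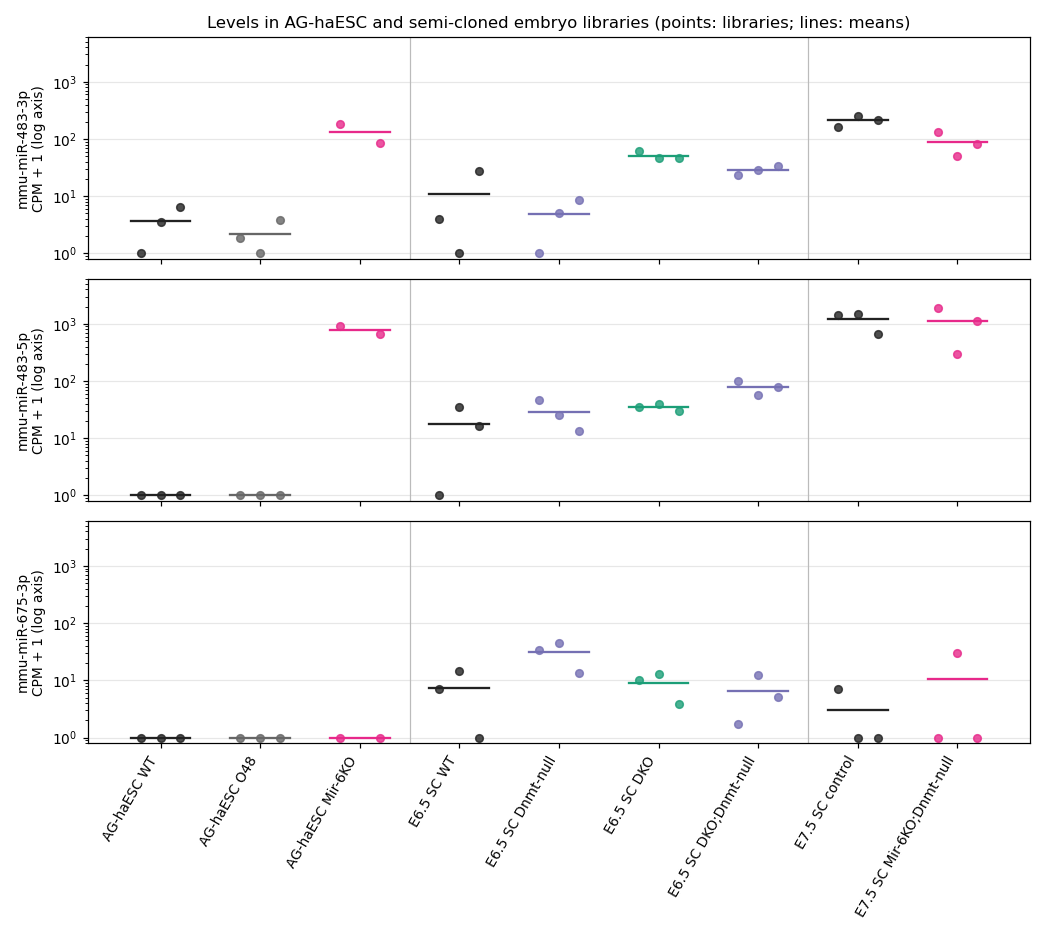
Level of miR-483-3p, miR-483-5p and miR-675-3p in AG-haESCs and SC embryos, as CPM + 1 on a log axis. Points are libraries and lines are group means. miR-483-5p lies at 0 in WT and O48 AG-haESCs, at 914 and 649.6 CPM in the libraries labelled Mir-6KO, and between 293 and 1900.5 CPM in E7.5 SC embryos.

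Ordered by group mean, miR-483-3p ran from E7.5 Exe control (2383 CPM) through E7.5 Exe *Dnmt3a/3b*-DKO (1523 CPM), E6.5 Exe control (1155 CPM) and E7.5 Epi control (849 CPM) to E7.5 Epi *Dnmt*-null at 0. Neighbours in this order overlapped except at 2 steps, from E6.5 SC DKO to E6.5 SC DKO;*Dnmt*-null and from there to E6.5 Epi *Dnmt1*-KO. For miR-483-5p and miR-675-3p all neighbours overlapped. miR-675-3p was highest in E7.5 Exe *Dnmt1*-KO (47.4 ± 56.5 CPM) and E6.5 Exe *Dnmt1*-KO (43.2 ± 29.6 CPM), both with a library at 0.

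Over the 24 groups of the main table, the miRNA whose group means of log2 CPM were most like those of miR-483-3p was miR-483-5p (Pearson r = 0.924), followed by miR-351-3p (r = 0.787) and miR-322-3p (r = 0.740). For miR-483-5p, the next after miR-483-3p were miR-8114 (r = 0.703) and miR-351-3p (r = 0.695). miR-675-3p was most like miR-467d-5p (r = 0.862), miR-467c-5p (r = 0.812) and miR-466b-3p (r = 0.812), of the *Sfmbt2* intron cluster counted here among trophoblast markers or its miR-466 relatives, and its r with miR-483-3p was 0.329. The median r with all other miRNAs was 0.0567, 0.0223 and 0.0568 for the 3 members. These are descriptions over group means that share depth, tissue and stage. Reads of near-identical copies in the miR-466 and miR-467 families cannot be divided with certainty.

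For context, miRNAs of other imprinted domains were counted in the same fits. Those antisense to *Rtl1* in the *Dlk1-Dio3* domain, 10 in the table, come from the maternal chromosome, as *H19* does. In E7.5 Epi, 4 were called higher in *Dnmt1*-KO (median log2 fold change over the list 0.71, against -0.15 over all miRNAs tested, of which 16.3% were called), 6 in *Dnmt*-null (0.55 against -0.19, with 33.7% called) and 1 in *Dnmt3a/3b*-DKO (0.09 against 0.02, with 7.67% called), and 0 lower. In *Dnmt1*-KO against *Dnmt3a/3b*-DKO there, 5 were higher (0.56 against -0.21, with 9.82% called). In E7.5 Exe, 2 were higher in *Dnmt1*-KO (0.67 against -0.09, with 5.03% called) and 1 in *Dnmt*-null (0.53 against -0.05, with 9.88% called). At E6.5, 2 of the 9 tested were higher in Epi *Dnmt*-null (0.55 against -0.14, with 13% called) and 0 in each other genotype of either tissue. In O48 against WT cells, 9 of 10 were lower (-4.37 against -0.28, with 13.7% called). Both arms of miR-483 had the opposite sign to this median in E7.5 *Dnmt1*-KO and *Dnmt*-null tissue.

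Of the 6 miRNAs in or near *Gnas* and *Mest*, 2 were lower in E7.5 Epi *Dnmt3a/3b*-DKO (median -0.43 against 0.02, with 7.67% of all miRNAs called), 2 lower in *Dnmt*-null (-0.20 against -0.19, with 33.7% called, close to the share of these 6) and 0 called in *Dnmt1*-KO (0.03 against -0.15, with 16.3% called). *Dnmt1*-KO against *Dnmt3a/3b*-DKO had 3 higher in E7.5 Epi (0.40 against -0.21, with 9.82% called) and 1 in E7.5 Exe (0.88 against -0.04, with 1.68% called), where miR-483-5p was called lower in both tissues. In the other genotype contrasts of dissected tissue, 0 of the 6 were called.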

How the data were processed

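Small RNA libraries had been prepared by CAS-seq from 100 pg of total RNA and sequenced on a NovaSeq. According to the methods and the submitters' processing notes, trimming by the authors used fastp 0.20.1 and alignment used Bowtie 1.2.1.1. The genome was GRCm38, and miRNAs were those of miRBase 21, with a tolerance of 2 nt at the 3′ end. Their own comparisons used DESeq2 1.30.1. The deposited values are raw read counts per mature miRNA, without normalization by the authors. A second copy of the main table, with other replicate numbers for some columns and 2 columns of no listed sample, was not used. The DKO;*Dnmt*-null SC libraries are in a table of their own.

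Groups were taken from the labels. The line labelled 408 (3 libraries) was not assigned. No pair of libraries within a group agreed within sampling noise (lowest chi-square per degree of freedom 4.20).

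CPM is the count per 1000000 reads of a library's total. For tests, edgeR 4.0.16 under R 4.3.3 was run (quasi-likelihood, TMM factors, filterByExpr at a minimum count of 10), with Benjamini-Hochberg adjustment over all miRNAs tested and a threshold of 0.05. One fit held all genotypes of a tissue at one stage, and another the 62 dissected libraries, for tissue and stage contrasts. Ratios and arm shares used exact permutation tests (scipy 1.17.1). Arm shares were tested over libraries with at least 10 reads of the hairpin. Ratios were compared only where every library of both groups had at least 10 reads of the hairpins together. Likeness used group means of log2 CPM with a prior count of 2. The procedure was tested on simulated data. The alternatives were DESeq2 1.42.0, RLE factors, no low-count filter, TMM factors computed without 109 miRNAs of *Dlk1-Dio3*, replicate number as a block, the study's thresholds (absolute log2 fold change above 0.5 and unadjusted p under 0.05), only the compared groups, and each library left out.

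The rule for named miRNAs gives the 4 members in every comparison, the 3 most similar miRNAs of each member with a mean of at least 10 counts, and 2 context lists. Members and lists were chosen with earlier results of these data known. Libraries of one replicate number were paired where every pair of deviations correlated above 0.1, in E6.5 Epi *Dnmt*-null against control (0.15 to 0.30) and E6.5 SC DKO against WT (0.16 to 0.28), and the replicate block called 0 members in both, as did the fit without it.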

Additional observations from a re-analysis of the deposited data

Results flagged for a closer look

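Of 36 sets of 4 libraries (one member in one group) checked for a lone library, 6 had one by Dixon's test. Its chance rate of about 1 in 20 holds for independent sets of normal values. Low CPM values are skewed and the arms of a hairpin share libraries, so the count cannot be set against that rate. E6.5 Exe *Dnmt1*-KO replicate 3 held 569.6 CPM of miR-483-3p and 1456 CPM of miR-483-5p, above the other libraries of its group. E6.5 Epi *Dnmt3a/3b*-DKO replicate 2 held 603 CPM of miR-483-3p. E6.5 Epi *Dnmt*-null replicate 1 held 1238 CPM of miR-483-5p. E7.5 Exe *Dnmt3a/3b*-DKO replicate 3 held 48.1 CPM of miR-675-3p, and E7.5 Epi *Dnmt3a/3b*-DKO replicate 1 held 1.13 CPM, below the others.

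The AG-haESC line labelled 408, which entered no comparison, held miR-483-5p reads in 2 libraries, 2.43 CPM in replicate 1 and 1.29 CPM in replicate 3, where WT cells had none.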

How the results depend on the processing

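Depth limited miR-675 most, with at most 117 reads of the 3p arm and 3 of the 5p arm in any dissected library. The called miR-483 changes of E7.5 Epi, of E7.5 Exe *Dnmt*-null and, for the 5p arm, of E7.5 Exe *Dnmt1*-KO, and the E6.5 Exe to Epi difference of controls, were called in every alternative that gave a value. TMM factors without the *Dlk1-Dio3* miRNAs moved the median log2 fold change of all miRNAs by 0.31 in E7.5 Epi *Dnmt1*-KO and 0.32 in E7.5 Epi *Dnmt*-null, and RLE factors by 0.43 in E6.5 control Exe against Epi. DESeq2 gave no p-value for miR-483-5p in the 4 E7.5 Epi comparisons.

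The number of members called moved as follows. DESeq2 called 2 in E6.5 Exe *Dnmt1*-KO, E6.5 Exe *Dnmt*-null and the E7.5 *Dnmt*-null tissue difference, and 1 in E6.5 Epi *Dnmt*-null, the E7.5 *Dnmt1*-KO tissue difference, E7.5 SC and E7.5 control Exe against Epi. RLE factors called 0 in E6.5 Exe *Dnmt*-null and 1 in E7.5 control Exe against Epi. Without the low-count filter, 2 were called in E6.5 Exe *Dnmt1*-KO, E6.5 Exe *Dnmt*-null, E7.5 Exe *Dnmt1*-KO against *Dnmt3a/3b*-DKO, the E7.5 *Dnmt*-null tissue difference and control Epi between stages, and 1 in E6.5 Epi *Dnmt1*-KO, E6.5 Epi *Dnmt*-null, E7.5 Epi *Dnmt3a/3b*-DKO, the E6.5 *Dnmt*-null and E7.5 *Dnmt1*-KO tissue differences and E7.5 control Exe against Epi. The study's thresholds called 2 in those first 5 and in E6.5 Epi *Dnmt1*-KO against control and against *Dnmt3a/3b*-DKO, and 1 in E6.5 Exe *Dnmt3a/3b*-DKO, E6.5 Epi *Dnmt*-null, E7.5 Epi *Dnmt3a/3b*-DKO, the same 2 tissue differences, E7.5 SC and E7.5 control Exe against Epi. With only the compared groups, 3 were called in E7.5 control Exe against Epi, 2 in the E7.5 *Dnmt*-null tissue difference and 1 in E7.5 Epi *Dnmt3a/3b*-DKO.

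The replicate block called 2 in E6.5 Exe *Dnmt*-null and 1 in both the E7.5 *Dnmt*-null tissue difference and E7.5 control Exe against Epi, and turned miR-483-3p of E6.5 Epi *Dnmt3a/3b*-DKO to -0.65 and miR-675-3p of E7.5 Exe *Dnmt1*-KO against *Dnmt3a/3b*-DKO to -0.037. Beyond the 2 paired comparisons, same-numbered libraries share only a number. Without the filter, miR-675-3p turned to 0.015 in E6.5 Exe *Dnmt1*-KO and miR-483-5p to 0.066 in the E7.5 *Dnmt3a/3b*-DKO tissue difference.

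With 1 library left out, the number called ranged from 0 to 2 in E6.5 Exe *Dnmt*-null and E6.5 SC DKO;*Dnmt*-null against DKO, from 1 to 2 in E7.5 Exe *Dnmt1*-KO and AG-haESC Mir-6KO against O48, and from 0 to 1 in E6.5 Exe *Dnmt1*-KO, E7.5 control Exe against Epi, the E7.5 *Dnmt*-null tissue difference and E6.5 SC DKO against WT. Uncalled estimates changed sign as follows. For miR-675-3p they ranged from -0.49 to 0.27 in E6.5 Exe *Dnmt1*-KO, -1.0 to 0.16 in E6.5 Exe *Dnmt*-null, -0.42 to 0.54 in E7.5 Exe *Dnmt3a/3b*-DKO, -0.43 to 0.63 in E7.5 Exe *Dnmt*-null, -0.00078 to 1.31 and -0.012 to 0.37 in E7.5 Exe and Epi *Dnmt1*-KO against *Dnmt3a/3b*-DKO, and -0.27 to 1.97 in the E6.5 *Dnmt1*-KO tissue difference. For miR-483-3p they ranged from -2.51 to 0.86 in E6.5 Epi *Dnmt3a/3b*-DKO, -1.73 to 1.96 in its tissue difference and -2.19 to 1.71 in E6.5 SC *Dnmt*-null. For miR-483-5p they ranged from -0.89 to 0.24 in E6.5 Epi *Dnmt3a/3b*-DKO, -2.80 to 1.17 in E6.5 Epi *Dnmt*-null, -0.35 to 3.50 in its tissue difference, -0.20 to 0.059 in the E7.5 *Dnmt3a/3b*-DKO tissue difference, -0.37 to 1.42 in E6.5 SC *Dnmt*-null and -0.95 to 0.044 in E7.5 SC. The ratio of miR-675 to miR-483 ranged from -0.42 to 1.33 in E6.5 Exe *Dnmt3a/3b*-DKO, -0.16 to 3.10 in E7.5 Exe *Dnmt1*-KO, -0.76 to 2.5 against *Dnmt3a/3b*-DKO there, -1.36 to 0.47 in E6.5 control Exe against Epi and -1.89 to 4.25 in E7.5 SC. The cause was not tested. With Spearman correlation, 3 of the most similar miRNAs were kept for miR-483-3p, 2 for miR-483-5p and 1 for miR-675-3p.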

Other observations

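The 3 libraries of the unassigned AG-haESC line labelled 408 held 1.82, 0 and 0 CPM of miR-483-3p, 2.43, 0 and 1.29 CPM of miR-483-5p, and no read of either arm of miR-675.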
